A study of Mus musculus with 18 samples.

Results

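The comparison described here asked where the early transcriptional response of mouse bone marrow to gamma rays differed between young adult and infant animals. It used 12 of the 18 arrays in the study, 3 in each of 4 groups of female mice of the C3H strain. These were marrow of 8-week-old mice 6 h after 2 Gy, marrow of unirradiated 8-week-old mice, marrow of 1-week-old mice 6 h after 2 Gy, and marrow of unirradiated 1-week-old mice. The radiation was gamma rays at 0.6 Gy per min, and no genotype or other agent separates the groups. Total RNA of whole marrow was labelled with Cy3 and hybridised to one-colour Agilent arrays. The design text speaks of 3 mice at each time course, so each array was taken as 1 mouse. Each p-value sets an effect against the spread between arrays within groups, estimated over all 18 arrays, the 24 h arrays included.

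Ionising radiation breaks DNA and activates the transcription factor p53, which induces genes of cell cycle arrest and of cell death. Lymphoid precursors in marrow are among the most sensitive cells of the body, whereas tissue macrophages and stromal cells survive much higher doses. Resident macrophages of the marrow engulf dead cells and recycle the iron of red cells, and stromal cells supply the niche factors on which blood stem cells depend. At 1 week of age the marrow cavity of the mouse is still being formed, within growing bone and cartilage.

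Throughout, a level is log2 signal minus the 75th percentile of the array, a response is the irradiated minus the unirradiated mean level at 1 age, and the difference is the 8-week response minus the 1-week response. A positive difference means that the change after irradiation lay higher at 8 weeks. Differences carry ± the standard error that limma estimated from 3 arrays in each group, with the spread pooled over all 18 arrays. A call means an adjusted p under 0.05 over all 11884 tested genes. A difference of 1 is a 2-fold gap between the responses. The markers of marrow were present, since 16 of 17 markers of erythroid, granulocytic, B-lineage, T, macrophage and megakaryocytic cells were well above background on all 12 arrays (the T-cell marker Cd3e was so on 11). Between 51.5 and 62.1% of probes were well above background on each of these arrays. Replicates correlated at r = 0.992 to 0.995, apart from unirradiated 1-week replicate 2, at r = 0.978 and 0.98 to the other arrays of its group. That array carried a mean level of 5 over 19 skeletal muscle genes, against -1.13 and -0.34 in the other unirradiated 1-week arrays, and a mean level of 3.2 over 9 cartilage genes, against -2.46 and -1.8. Values without that array are given where leaving it out changed a call or moved a count of calls by over 1.5 times, and for the muscle, cartilage, stromal and growth lists. The arrays lay on 5 slides scanned on 1 day, and 0 slides held all 4 groups, so no value of the difference could be had within a slide. Irradiated 8-week and unirradiated 1-week arrays both lay on slides 1, 2 and 3. Unirradiated 8-week arrays lay on slides 3, 4 and 5, and irradiated 1-week arrays on slides 1, 4 and 5. Slide 2 thus entered the difference only with a plus sign, and slides 4 and 5 only with a minus sign. Slide and the difference are therefore partly confounded.

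The response differed between the ages in 2210 of 11884 genes (18.6%). It lay higher at 8 weeks in 1248 genes (10.5% of those tested) and lower in 962 (8.09%). The gap was at least 2-fold in 352 of them, 306 higher and 46 lower. At 8 weeks 2843 genes rose (23.9%) and 2626 fell (22.1%), and at 1 week 3031 rose (25.5%) and 3130 fell (26.3%). Most genes that responded at both ages moved the same way, namely 3436 of 3661, while 225 moved in opposite directions. All 225 had a called difference, which called responses of opposite sign give by construction in this fit. Of the 225, 160 rose at 8 weeks and fell at 1 week. Of the genes higher at 8 weeks, 396 fell at 1 week with no call at 8 weeks, 379 rose at 8 weeks with no call at 1 week, and 234 fell at both ages. Of the genes lower at 8 weeks, 458 rose at 1 week with no call at 8 weeks and 153 rose at both ages. Without unirradiated 1-week replicate 2 the number of calls was 1850, of which 1709 were shared with the fit on all arrays. With slide as a block it was 1370.

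**Figure D1:**
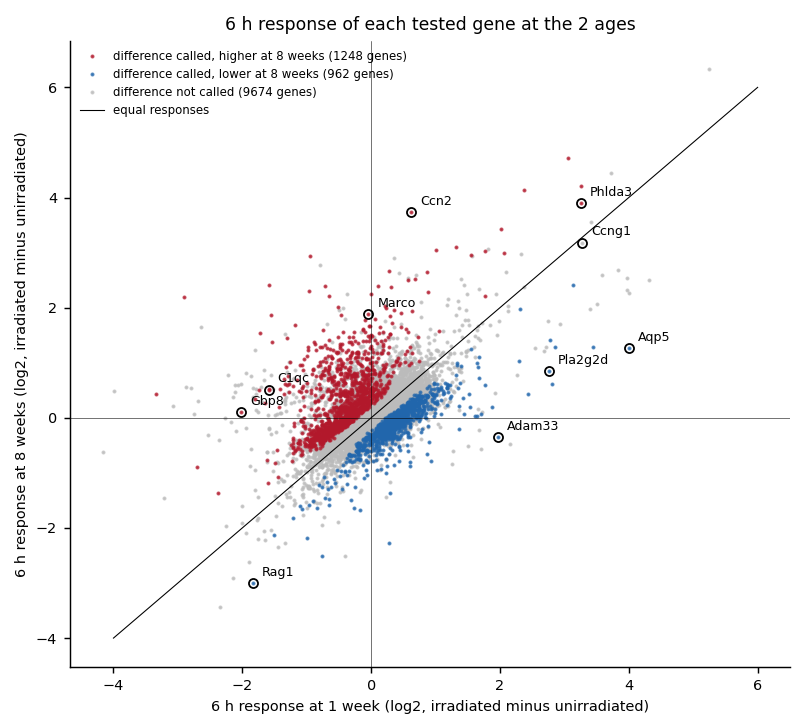
Each point is 1 of 11884 tested genes, with its 6 h response at 1 week on the horizontal axis and at 8 weeks on the vertical axis, both in log2 units. Red points (1248) and blue points (962) have a called difference, and the line marks equal responses; Ccn2 and Marco lie high above it, and Aqp5 and Adam33 far below it.

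Across 50 gene lists, resident macrophage genes held the greatest share of members higher at 8 weeks, and mature B-cell, erythroid and mitotic genes the greatest shares of members lower at 8 weeks, in the fit on all arrays without a block. The order of the lower shares did not hold in other settings: with slide as a block 1 of 18 mature B-cell genes was lower, and without unirradiated 1-week replicate 2, 8 of 44 mitotic genes were. The lists were chosen with earlier results of these data known, so their counts describe these arrays and are set beside the counts over all tested genes. Some genes stand in more than 1 list, Vcam1 and Axl among them, so the lists are not independent of each other. The median difference over all tested genes was 0.01.

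**Figure D2:**
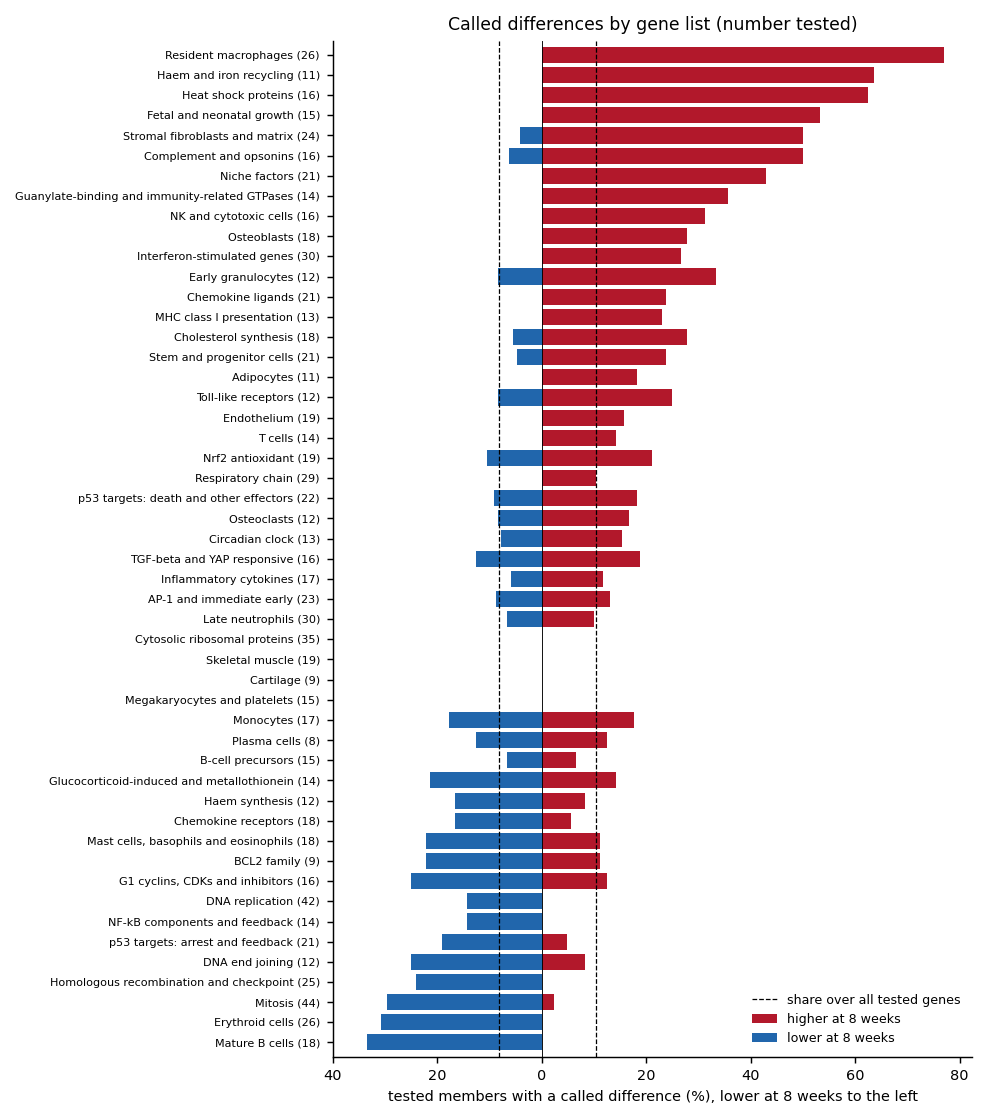
Bars give the percentage of the tested members of each gene list whose 6 h response was higher (right, red) or lower (left, blue) at 8 weeks, with the number tested in parentheses. Dashed lines mark the shares over all tested genes, 10.5% higher and 8.09% lower; resident macrophages stand at the top with 20 of 26 members higher.

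Most genes of resident macrophages rose after irradiation at 8 weeks, and more of them fell than rose at 1 week. Of 26 tested members, 20 had a higher response at 8 weeks and 0 a lower one, with a median difference of 1.16. The list's median response was 0.51 at 8 weeks (20 rose, 0 fell) and -0.29 at 1 week (5 rose, 14 fell), and 11 members moved in opposite directions. The members without a call included Adgre1, which encodes a surface protein widely used to mark mouse macrophages, with a difference of 0.12 ± 0.1 (adjusted p = 0.448 by limma). The difference was positive in 23 of the 26 members. It was negative, without a call, in Msr1 (-0.46), Vsig4 (-0.52) and Folr2 (-0.21). In bulk marrow, fewer cells of a type and less RNA per cell cannot be told apart.

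The subunits of C1q, which starts the classical complement pathway, moved together. C1qc had levels of 3.53, 3.51 and 3.67 in irradiated 8-week marrow, against 3.2, 3.12 and 2.86 in unirradiated 8-week marrow, and levels of 0.6, 1.23 and 1.09 in irradiated 1-week marrow, against 2.71, 2.35 and 2.63 in unirradiated 1-week marrow. Irradiated arrays thus lay above all unirradiated arrays at 8 weeks and below all of them at 1 week. The difference of C1qc was 2.1 ± 0.18 (adjusted p = 3.17e-06). C1qa differed by 1.9 ± 0.19 and C1qb by 1.73 ± 0.16. C1qa fell by 1.64 at 1 week, and its response at 8 weeks, 0.26, did not pass the test. Fcna, which encodes ficolin A, a recognition molecule of the lectin pathway of complement, rose by 0.52 at 8 weeks and fell by 1.42 at 1 week, a difference of 1.95 ± 0.15 (adjusted p = 1.42e-06). The complement and opsonin list shares C1qa, C1qb, C1qc and Fcna with the resident macrophage list. Of its 16 tested genes, 8 were higher at 8 weeks and 1 was lower, with a median difference of 0.86. The exception was Fcnb, which encodes ficolin B, made by granulocyte precursors (-0.43 ± 0.13, adjusted p = 0.0364). The call of Fcnb was lost in 11 other settings, among them the fit without unirradiated 1-week replicate 2 (adjusted p = 0.0704).

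A different pattern was seen in Marco, a scavenger receptor for bacteria and debris. Its levels were 1.62, 1.3 and 1.43 in irradiated 8-week marrow, against -0.08, -0.65 and -0.55 in unirradiated 8-week marrow. In 1-week marrow they were 0.74, 0.8 and 0.69 after irradiation, against 0.85, 0.56 and 0.93 without it, so that the groups overlapped. Marco thus rose by 1.88 at 8 weeks, and its 1-week response of -0.041 was not called (difference 1.92 ± 0.19, adjusted p = 1.69e-05). Hmox1, which encodes haem oxygenase 1, behaved likewise, with a response of 1.49 at 8 weeks and 0.0089 at 1 week (difference 1.48 ± 0.12, adjusted p = 2.17e-06). Spic, the transcription factor of iron-recycling macrophages, rose by 1.16 at 8 weeks and fell by 0.21 at 1 week. Of 11 tested genes of haem and iron recycling, 7 were higher at 8 weeks and 0 were lower, and 4 were higher with slide as a block. They included Nr1h3, which encodes the sterol receptor LXR alpha (1.22 ± 0.14), and Ftl1, which encodes the ferritin light chain (0.45 ± 0.12). The call of Ftl1 was lost with slide as a block. Of the 7, Hmox1, Slc40a1, Cd163, Spic and Nr1h3 were also counted among the resident macrophage genes higher at 8 weeks.

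**Figure D3:**
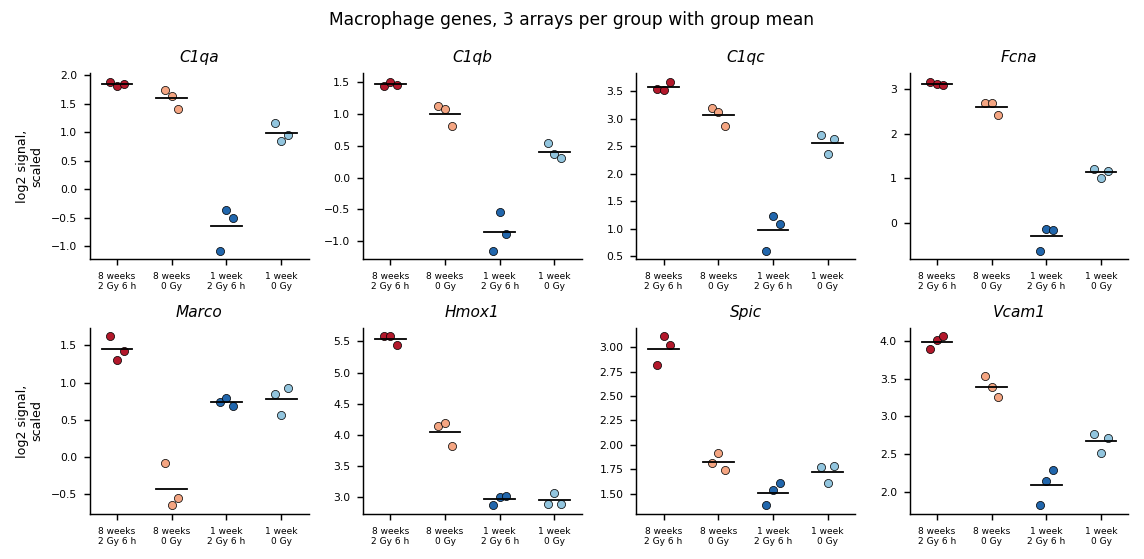
Level (log2 signal scaled to the 75th percentile of the array) of 8 macrophage genes on each of 3 arrays per group, with bars at the group means. The C1q subunits and Fcna lie lowest in irradiated 1-week marrow, while Marco, Hmox1 and Spic lie highest in irradiated 8-week marrow.

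Several genes that macrophages share with monocytes or other cells also moved in opposite directions. Il18, which encodes a cytokine matured by inflammasomes, had the smallest adjusted p of the inflammatory cytokines. Its levels were 0.89, 0.94 and 0.75 in irradiated 8-week marrow, against 0.04, 0.12 and -0.14 in unirradiated 8-week marrow. They were -0.92, -0.76 and -0.82 in irradiated 1-week marrow, against -0.03, -0.14 and -0.1 in unirradiated 1-week marrow. The unirradiated levels of both ages overlapped, and irradiated marrow moved up at 8 weeks and down at 1 week (difference 1.6 ± 0.11, adjusted p = 6.71e-07). Axl, a receptor for the uptake of dying cells, rose by 0.38 at 8 weeks and fell by 1.06 at 1 week. Fcgr1, the high-affinity receptor for IgG, rose by 0.48 and fell by 0.69, and Ms4a7, a membrane protein of mature monocytes and macrophages, rose by 0.49 and fell by 0.64. Of 17 tested monocyte genes, 3 were higher at 8 weeks, Fcgr1 and Ms4a7 among them, and 3 were lower, including Cd14, a co-receptor for bacterial lipopolysaccharide (-0.49 ± 0.12, adjusted p = 0.011). The median difference of the monocyte list was -0.29, and with slide as a block 1 member was lower.

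Most stromal and matrix genes rose after irradiation at 8 weeks, where their unirradiated level was lower than at 1 week. Of 24 tested stromal fibroblast and matrix genes, 12 were higher at 8 weeks and 1 was lower, with a median difference of 1. At 8 weeks 18 rose and 2 fell, whereas at 1 week 1 rose and 7 fell. In unirradiated marrow the median of the list's 8-week minus 1-week level was -2.23. Without unirradiated 1-week replicate 2, the muscle-rich array, 14 members were higher, 1 was lower and the median was 0.95. On that array the mean level of the stromal list was 1.18, against 0.98 and 0.8 on the other unirradiated 1-week arrays.

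Ccn2, a secreted matrix protein induced by TGF-beta and by the YAP pathway, had the greatest called difference among genes above background on all 12 arrays, and its call held in every setting tried. Its levels were 1.9, 1.86 and 2.84 in irradiated 8-week marrow, against -1.25, -1.52 and -1.82 in unirradiated 8-week marrow. In 1-week marrow they were 2.89, 2.44 and 3.03 after irradiation, against 1.51, 3.04 and 1.95 without it. The 8-week groups were far apart and the 1-week groups overlapped. Ccn2 rose by 3.73 at 8 weeks, and its response at 1 week, 0.62, was not called (difference 3.11 ± 0.47, adjusted p = 0.000406, and 2.68 without unirradiated 1-week replicate 2). Mmp2, a gelatinase that cleaves matrix, rose by 2.67 at 8 weeks with a response of 0.28 at 1 week (difference 2.39 ± 0.28, adjusted p = 5.47e-05). Fap, which encodes fibroblast activation protein, rose by 1.23 at 8 weeks and fell by 0.59 at 1 week, and Fbn1, which encodes fibrillin 1 of elastic microfibrils, rose by 0.89 and fell by 0.65. Fn1, which encodes fibronectin, was the exception: it fell by 0.78 at 8 weeks and rose by 0.43 at 1 week (difference -1.21 ± 0.24, adjusted p = 0.00322). Its call was lost with slide as a block. Of 16 tested genes responsive to TGF-beta or YAP, 3 were higher and 2 were lower, and without the muscle-rich array 5 were higher and 2 were lower.

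Niche factors, which keep blood stem and progenitor cells in the marrow, showed 9 of 21 members higher at 8 weeks and 0 lower (median difference 0.88). With slide as a block 6 were higher, and with normexp background correction 7 were, with a median of 0.21. Igf1, a growth factor made by stromal cells and macrophages, had levels of 1.18, 1.23 and 1.24 in irradiated 8-week marrow, against 0.35, 0.37 and 0.06 in unirradiated 8-week marrow. Its levels were -1.07, -0.78 and -0.68 in irradiated 1-week marrow, against 0.01, -0.06 and -0.13 in unirradiated 1-week marrow. Irradiated and unirradiated arrays did not overlap at either age, and the directions were opposite (difference 1.75 ± 0.13, adjusted p = 1.37e-06). A second probe of Igf1 gave 0.94. Kitl, which encodes stem cell factor, rose by 0.99 at 8 weeks and fell by 0.44 at 1 week. Foxc1, a transcription factor of the stromal cells that make Cxcl12, rose by 1.34 and fell by 0.45. Vcam1, an adhesion molecule of stroma and macrophages, rose by 0.59 and fell by 0.58. Cxcl12 itself, the chemokine that holds stem cells in the niche, rose by 0.65 at 8 weeks, and its 1-week response of -0.23 was not called. The difference of 0.88 ± 0.22 (adjusted p = 0.0122) lost its call with slide as a block.

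Of 18 tested osteoblast genes, 5 were higher at 8 weeks and 0 were lower, and 3 were higher with slide as a block. Postn, a matrix protein of bone surfaces, rose by 1.46 at 8 weeks (difference 1.97 ± 0.3, adjusted p = 0.000525), and Alpl, the alkaline phosphatase of mineralising cells, rose by 0.54 at 8 weeks and fell by 0.79 at 1 week. Endothelial genes showed 3 of 19 higher, 5 without the muscle-rich array, and 0 with slide as a block or with normexp. Their share called with all arrays was near the 18.6% of all tested genes.

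**Figure D4:**
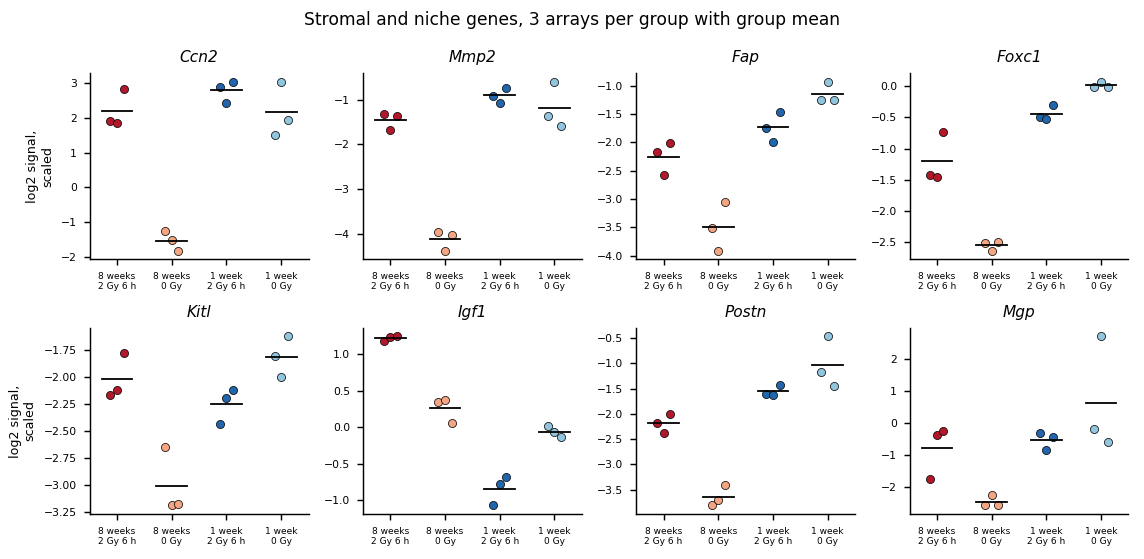
Level (log2 signal scaled to the 75th percentile of the array) of 8 stromal and niche genes on each of 3 arrays per group, with bars at the group means. In each panel but Igf1 the unirradiated 8-week arrays have the lowest group mean, and in the Mgp panel 1 unirradiated 1-week array, the muscle-rich one, stands at 2.71.

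Genes of fetal and neonatal growth, which are shut down after birth, had 8 of 15 members higher at 8 weeks and 0 lower, with a median difference of 1.18 (0.84 without the muscle-rich array), and 5 were higher with slide as a block. Mest, an imprinted gene, rose by 0.76 at 8 weeks and fell by 0.86 at 1 week (difference 1.62 ± 0.25), and Plagl1, an imprinted zinc finger gene, rose by 0.79 and fell by 0.92. In unirradiated marrow the median of the list's 8-week minus 1-week level was -2.71. Lin28b, an RNA-binding protein of fetal blood formation, fell by 1.74 at 1 week and was not well above background on any 8-week array. It is counted among the 8, though no direction or size can be read for it at 8 weeks. Igf2 and Sox17, also counted, were not well above background on any unirradiated 8-week array. Irradiated 8-week marrow was at least 2.05-fold higher for Igf2 and at least 1.95-fold higher for Sox17. Muscle and cartilage genes had greater median differences, 2.23 and 2.51, with 0 of 19 and 0 of 9 called, and those medians became 0.24 and 0.59, with 1 call in each list, without the muscle-rich array. Some of the greatest single differences moved with that array. Gpd1 had a level of 2.11 there, against -0.82 and -0.74 on the other unirradiated 1-week arrays, and its difference was 2.35 with all arrays and 1.39 without that one. Mgp, an inhibitor of calcification, had a difference of 2.85 with all arrays and 1.83 without that one. Both calls were lost with slide as a block. Pmp22, a membrane protein of Schwann cells and growth-arrested fibroblasts, was 1.37 there, against -0.41 and -0.61. It rose by 2.22 at 8 weeks, with a difference of 2.88 ± 0.46 with all arrays and 2.25 (adjusted p = 1.28e-06) without that one. The part of that array's muscle and cartilage RNA in these differences was not tested.

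Heat shock genes, which encode the chaperones that refold damaged proteins, fell at 1 week in most cases. Of 16 tested members, 10 were higher at 8 weeks and 0 were lower, with a median difference of 0.61. The mean level of the list was 3.56 on the muscle-rich array, against 2.96 and 3.03 on the other unirradiated 1-week arrays, and without that array 10 were higher with a median of 0.48. At 8 weeks 6 rose and 2 fell, whereas at 1 week 1 rose and 9 fell. Hsph1, a nucleotide exchange factor of the HSP110 family, had levels of 5.45, 5.59 and 5.61 in irradiated 8-week marrow, against 5.32, 4.9 and 5.19 in unirradiated 8-week marrow. In irradiated 1-week marrow it had 2.42, 2.67 and 2.62, against 3.36, 3.54 and 3.43 in unirradiated 1-week marrow. The 1-week arrays lay below all 8-week arrays, and the age gap was wider after irradiation (difference 1.29 ± 0.18, adjusted p = 0.000229). Hsp90aa1, the inducible HSP90, rose by 0.33 at 8 weeks and fell by 0.54 at 1 week (0.87 ± 0.11, adjusted p = 0.000118). The mitochondrial partners Hspe1 and Hspd1, which encode HSP10 and HSP60, both fell at 1 week, by 0.63 and 0.99. At 8 weeks Hspd1 fell by 0.38, and the response of Hspe1, 0.15, was not called. Their differences were 0.78 ± 0.1 and 0.61 ± 0.1. Hspa1a differed by 1.03 ± 0.26 (adjusted p = 0.0114), but it and Hspa1b are near-identical copies that the probes may not separate.

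**Figure D5:**
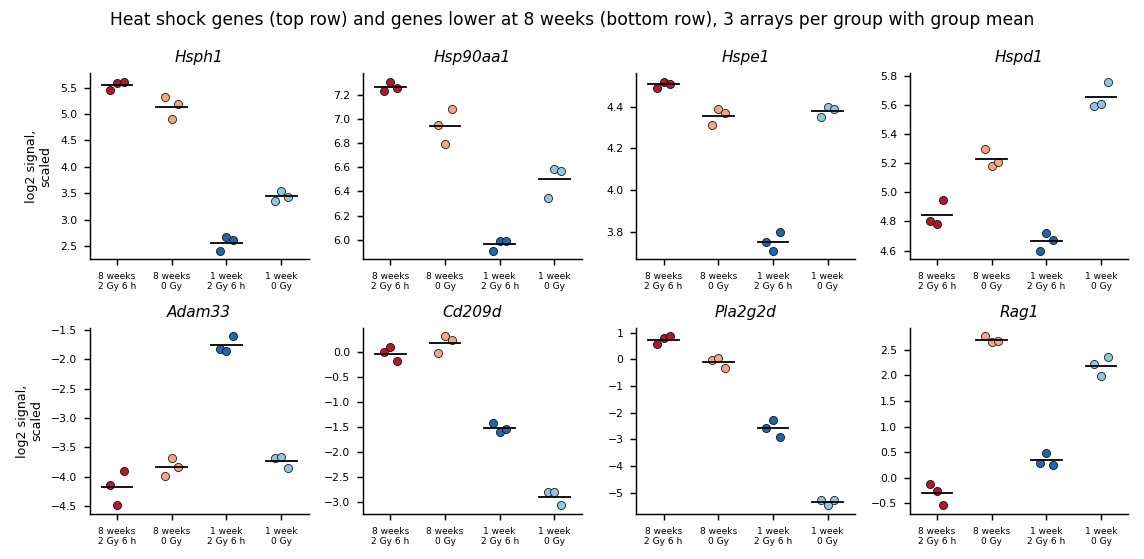
Level (log2 signal scaled to the 75th percentile of the array) of 4 heat shock genes (top) and 4 genes with a lower response at 8 weeks (bottom) on each of 3 arrays per group, with bars at the group means. Irradiated 1-week arrays lie lowest in all 4 top panels, and highest in the Adam33 panel.

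Of the 16 heat shock genes 10 were higher at 8 weeks and 0 were lower, though at 8 weeks 6 rose and 2 fell. Their promoters were read for the heat shock element, the inverted repeat bound by the heat shock factor HSF1. It was searched as TTCNNGAA and as GAANNTTC in the 250 bases before each gene's start in RefSeq's GRCm38.p6 annotation. Each motif reads the same on both strands, and matches of the 2 may overlap. At least 1 match was found for 7 of the 12 tested heat shock genes in the promoter table (58.3%), and for 14.5% of all 27025 genes in it. Of these 7, Hspb1 and Hspa1b had no called difference and their stretches are not shown. Among the 8 genes with a called difference, 5 had a match (62.5%). Stretches around the matches of those 5 genes are shown with the matches in capitals. They belong to the shared promoter of Hspe1 and Hspd1, which are transcribed away from each other (chr1:55088044-55088091, plus strand, the strand of Hspe1), to Hsph1 (chr5:149636347-149636384, minus strand), to Dnaja1 (chr4:40722329-40722366, plus strand) and to Hspa1a (chr17:34972238-34972275, minus strand).
Hspe1 and Hspd1: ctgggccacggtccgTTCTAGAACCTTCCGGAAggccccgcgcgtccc
Hsph1: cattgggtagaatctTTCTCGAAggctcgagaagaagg
Dnaja1: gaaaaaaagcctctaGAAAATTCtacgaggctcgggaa
Hspa1a: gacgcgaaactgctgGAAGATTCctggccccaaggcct
The table lists several starts for Hspd1, Hsph1 and Dnaja1, and the match of Hspd1 and of Dnaja1 lies before 1 of them. The Hspe1 and Hspd1 stretch holds 3 overlapping matches between the 2 genes. A match is a description of these letters and says nothing about binding. Hspa5, Hspa4 and Bag3, whose differences were also called, had 0 matches in the window. Dnajb1 and Hspb8, whose differences were not called, had 0 as well.

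Some interferon-stimulated and cytotoxic lymphocyte genes also had a higher response at 8 weeks. Of 30 tested interferon-stimulated genes, 8 were higher and 0 were lower (median difference 0.24), and without the muscle-rich array 10 were higher (median 0.37). Ifit3, an antiviral protein, rose by 0.49 at 8 weeks and fell by 1.12 at 1 week (1.6 ± 0.26, adjusted p = 0.000848). Rtp4, an interferon-induced chaperone, had levels of 4.34, 4.44 and 4.28 in irradiated 8-week marrow, against 3.34, 3.72 and 3.82 in unirradiated 8-week marrow. It had 2.04, 1.83 and 1.92 in irradiated 1-week marrow, against 3.17, 2.13 and 2.82 in unirradiated 1-week marrow. The groups did not overlap at either age, and the lowest unirradiated 1-week array was the muscle-rich one (1.51 ± 0.26, and 1.79 without it). Among 14 guanylate-binding and immunity-related GTPases, which attack intracellular microbes, 5 were higher and 0 were lower. Gbp2 rose by 0.44 at 8 weeks and fell by 0.52 at 1 week. Gbp8 fell by 2.02 at 1 week (difference 2.12 ± 0.17, adjusted p = 1.96e-06), but its second probe gave a difference of 0.23, so the probes of Gbp8 disagree. Ifng, which encodes interferon gamma, rose by 0.87 at 8 weeks, with an uncalled response of -0.35 at 1 week (1.22 ± 0.3, adjusted p = 0.0103). Of 16 genes of natural killer and cytotoxic cells, 5 were higher and 0 were lower, among them Gzma, which encodes granzyme A (0.61 at 8 weeks and -0.55 at 1 week), and Tbx21, the transcription factor T-bet (0.47 and -0.35).

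Of 21 tested chemokine ligands, 5 were higher at 8 weeks and 0 were lower, with 3 higher on the 12 arrays alone and 8 with quantile normalization. Ccl2, which draws monocytes out of marrow, rose at both ages and further at 8 weeks. Its levels were -1.07, -0.74 and -0.77 in irradiated 8-week marrow, against -3.84, -3.76 and -3.99 in unirradiated 8-week marrow. They were -1.57, -1.69 and -1.53 in irradiated 1-week marrow, against -3.61, -3.76 and -3.63 in unirradiated 1-week marrow. The unirradiated levels of both ages met at -3.76, and the irradiated levels of the ages did not overlap (difference 0.93 ± 0.15, adjusted p = 0.000729). Cxcl14 rose by 1.1 at 8 weeks, with a response of 0.0085 at 1 week. Among 18 chemokine receptors, 1 was higher and 3 were lower, including Cx3cr1, the fractalkine receptor, which rose by 0.7 at 1 week, with an uncalled response of -0.0015 at 8 weeks (-0.7 ± 0.2, adjusted p = 0.0208, lost with slide as a block). With slide as a block 2 receptors were higher and 0 were lower, so the balance of that list turned. The share of receptors called without a block was near the 18.6% of all tested genes.

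Most genes induced by p53 rose at both ages. Of 21 targets of arrest and feedback, 17 rose at 8 weeks and 19 at 1 week, with median responses of 0.84 and 0.96. In that list 1 was higher and 4 were lower. Of 22 targets of death and other effectors, 17 rose at 8 weeks and 18 at 1 week, with median responses of 1.32 and 1.39, and 4 were higher and 2 lower (2 and 1 with slide as a block). Ccng1, a cyclin of p53 feedback, had levels of 3.54, 3.65 and 3.66 in irradiated 8-week marrow, against 0.32, 0.52 and 0.48 in unirradiated 8-week marrow. It had 3.95, 3.9 and 3.8 in irradiated 1-week marrow, against 0.56, 0.78 and 0.51 in unirradiated 1-week marrow. Its responses were 3.18 and 3.27, with a 95% interval of the difference from -0.32 to 0.14. Dcxr, a carbonyl reductase, rose by 2.37 at both ages (interval -0.23 to 0.25), and Ei24 rose by 1.59 at 8 weeks and 1.65 at 1 week (interval -0.28 to 0.18). Mdm2, the ubiquitin ligase of p53, had a difference of -0.13 (interval -0.38 to 0.13). Cdkn1a, the cell cycle inhibitor p21, rose by 2.97 at 8 weeks and 2.33 at 1 week. Its difference of 0.64 ± 0.23 had an adjusted p of 0.064 and an interval from 0.15 to 1.12.

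Some p53 targets did differ. In both lists the share called was above the 18.6% of all tested genes, but by few members, too few to set the lists apart. With normexp 0 of the 21 arrest and feedback targets were higher and 2 were lower. That was a smaller share than the 1805 of 11884 genes called with normexp. Phlda3, an inhibitor of the kinase Akt, had levels of 5.29, 5.49 and 5.68 in irradiated 8-week marrow, against 1.68, 1.52 and 1.57 in unirradiated 8-week marrow. Its levels were 5.46, 5.47 and 5.43 in irradiated 1-week marrow, against 2.25, 2.18 and 2.15 in unirradiated 1-week marrow. The irradiated levels overlapped between the ages and the unirradiated ones did not (difference 0.64 ± 0.1, adjusted p = 0.000731). The call of Phlda3 was lost with the authors' deposited log2 values. Hebp2, a haem-binding protein, rose by 3.42 at 8 weeks and 2.02 at 1 week (1.4 ± 0.18, adjusted p = 8.89e-05). Trp53inp1, a p53 cofactor, rose less at 8 weeks, by 0.92, than at 1 week, by 1.66 (-0.74 ± 0.12, adjusted p = 0.000804). Ddit4, an inhibitor of mTOR signalling, rose by 0.94 and 1.39 (-0.45 ± 0.11). Ddb2, a sensor of ultraviolet damage, fell by 0.23 at 8 weeks and rose by 0.27 at 1 week, a difference whose call was lost with normexp. Gdf15, a stress cytokine, rose by 4.71 at 8 weeks and 3.06 at 1 week (1.64 ± 0.54, adjusted p = 0.0452), but its call was lost in 16 other settings. Outside the p53 lists, the BCL2 family gene Bmf, a BH3-only activator of apoptosis, fell by 1.47 at 8 weeks and by 0.65 at 1 week. Its difference was -0.82 ± 0.11 (adjusted p = 0.000143), and its call was lost on the mean of its probes.

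Genes of B-cell precursors fell steeply at both ages. All 15 tested members fell at 8 weeks and 14 fell at 1 week, with median responses of -1.42 and -1.49, and 2 of 15 differed between the ages, a share near that of all tested genes. Rag1, part of the recombinase that assembles antigen receptor genes, had levels of -0.12, -0.25 and -0.54 in irradiated 8-week marrow, against 2.76, 2.66 and 2.67 in unirradiated 8-week marrow. Its levels were 0.29, 0.49 and 0.25 in irradiated 1-week marrow, against 2.22, 1.99 and 2.36 in unirradiated 1-week marrow. Rag1 stood higher at 8 weeks before irradiation and lower after it (difference -1.16 ± 0.14, adjusted p = 8.67e-05). Arpp21, an RNA-binding protein of early B cells, fell less at 8 weeks, by 0.77, than at 1 week, by 1.61 (0.83 ± 0.21, adjusted p = 0.0126), a call lost on the mean of its probes. Ebf1, the transcription factor that specifies B cells, had a difference of -0.56 ± 0.19 (adjusted p = 0.0506), and Dntt, which adds bases at receptor junctions, one of 0.4 ± 0.15 (adjusted p = 0.0663, and 0.0355 without the muscle-rich array). Mature B-cell genes behaved otherwise: 0 of 18 were higher at 8 weeks and 6 were lower, with a median difference of -0.48, and 1 with slide as a block. Ms4a1, which encodes CD20, rose by 0.65 at 1 week, with an uncalled response of -0.033 at 8 weeks (-0.68 ± 0.15, adjusted p = 0.006, lost with slide as a block). Fcer2a, which encodes CD23, a low-affinity IgE receptor, rose by 1.28 at 8 weeks (-1.57 ± 0.23, adjusted p = 0.000289, lost with normexp). In unirradiated 1-week marrow Fcer2a was not well above background on any array, and irradiated 1-week marrow was at least 4.37-fold higher than that floor. Such a bound sets the irradiated mean against the weakest signal well above background on each dim array.

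Mitotic genes rose at 1 week in most cases. Of 44, 7 rose and 2 fell at 8 weeks, whereas 35 rose and 1 fell at 1 week. Their responses were lower at 8 weeks in 13 and higher in 1, with a median difference of -0.3, and lower in 8 without the muscle-rich array. Ccnb2, a mitotic cyclin, had levels of 6.1, 6.26 and 6.41 in irradiated 8-week marrow, against 6.13, 6.12 and 6.09 in unirradiated 8-week marrow. In 1-week marrow it had 7.19, 7.12 and 6.87 after irradiation, against 6.49, 6.41 and 6.41 without it. The groups overlapped at 8 weeks and were apart at 1 week (-0.48 ± 0.11, adjusted p = 0.00757). Of 42 DNA replication genes, 37 fell at 8 weeks and 17 at 1 week. Of these 42, 6 were lower at 8 weeks and 0 were higher, and 2 were lower without the muscle-rich array. With all arrays the share called either way was under the 18.6% of all tested genes, while the share lower was above their 8.09%. Without the muscle-rich array 655 of all 11884 genes were lower, a greater share than the 2 of 42. E2f1, a transcription factor of S-phase entry, fell by 0.69 at 8 weeks, with an uncalled response of -0.036 at 1 week (-0.65 ± 0.082, adjusted p = 8.89e-05), and Tk1, thymidine kinase, fell by 0.49 with an uncalled 0.076. Of 25 genes of homologous recombination and checkpoint, 6 were lower and 0 were higher, including Rad54b, a recombination ATPase (-0.69 ± 0.14, adjusted p = 0.00442), and H2ax, the histone phosphorylated at breaks (-0.45 ± 0.094). Cdkn2c, the inhibitor p18, rose by 0.58 at 1 week (-0.63 ± 0.1, a call lost with normexp), whereas Ccnd2, a G1 cyclin, rose by 0.78 at 8 weeks (0.87 ± 0.14, adjusted p = 0.00068).

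All 26 tested erythroid genes had a negative difference, with a median of -0.27, and 8 passed the test. With slide as a block or with normexp 4 passed, and 5 passed on the 12 arrays alone. Trim10, an erythroid ubiquitin ligase, rose by 0.38 at 8 weeks and by 0.86 at 1 week (-0.48 ± 0.091, adjusted p = 0.00228). Slc25a38, the mitochondrial glycine carrier of haem synthesis, rose by 0.43 at 1 week, with an uncalled response of -0.18 at 8 weeks. Late neutrophil genes rose at both ages, 28 of 30 at 8 weeks and 30 of 30 at 1 week, with 3 higher and 2 lower at 8 weeks. That balance turned to 1 higher and 3 lower without the muscle-rich array, and to 0 higher and 3 lower with slide as a block. The share of late neutrophil genes called was near the 18.6% of all tested genes. Chil3, a chitinase-like protein of neutrophils, rose by 0.56 and 1.18 (-0.62 ± 0.11, adjusted p = 0.00134). Early granulocyte genes showed 4 of 12 higher and 1 lower, and 1 higher and 1 lower with slide as a block. Among the higher was Ctsg, which encodes cathepsin G and fell by 0.66 at 1 week (0.61 ± 0.12, adjusted p = 0.00346). Of 21 stem and progenitor genes, 5 were higher and 1 was lower (6 and 0 without the muscle-rich array). Cd34 rose by 0.51 at 8 weeks and fell by 0.4 at 1 week (0.91 ± 0.11, adjusted p = 8.89e-05), and Myc fell by 1.09 at 1 week, with an uncalled response of -0.058 at 8 weeks. Among 35 cytosolic ribosomal protein genes 0 were called, with a median difference of 0.0025.

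Many of the largest gaps in the other direction were in genes that rose at 1 week. Adam33, a membrane metalloprotease, had levels of -4.15, -4.49 and -3.91 in irradiated 8-week marrow, where it was not well above background on any array, against -3.99, -3.68 and -3.83 in unirradiated 8-week marrow. It had -1.82, -1.86 and -1.61 in irradiated 1-week marrow, against -3.69, -3.67 and -3.85 in unirradiated 1-week marrow. The 8-week groups overlapped and the 1-week groups did not. Adam33 rose by 1.97 at 1 week, with an uncalled response of -0.35 at 8 weeks (-2.33 ± 0.26, adjusted p = 3.88e-05). Cd209d, a C-type lectin related to DC-SIGN, rose by 1.37 at 1 week, with an uncalled response of -0.2 at 8 weeks (-1.57 ± 0.17, adjusted p = 2.47e-05). Pla2g2d, a secreted phospholipase of dendritic cells and macrophages, rose by 0.85 at 8 weeks. At 1 week its unirradiated arrays were not well above background, and irradiated marrow was at least 3.48-fold higher. The difference of Pla2g2d was -1.91 ± 0.24 (adjusted p = 8.67e-05, lost with normexp). Aqp5, a water channel, was at least 12.7-fold higher in irradiated than in unirradiated 1-week marrow, which was not well above background. Its response at 8 weeks, 1.27, was not called, and its difference of -2.73 ± 0.75 lost its call with slide as a block. Plcd3, a phospholipase C, rose by 1.29 at 8 weeks and by 3.45 at 1 week (-2.16 ± 0.47, adjusted p = 0.00541). Per1, a clock gene induced by glucocorticoids, rose by 0.9 at 1 week, with an uncalled response of -0.44 at 8 weeks (-1.34 ± 0.25, adjusted p = 0.00222). Fdft1, squalene synthase, rose by 0.31 and 0.94 (-0.62 ± 0.083), whereas 5 of 18 cholesterol genes were higher at 8 weeks and 1 was lower (3 and 1 with slide as a block).

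Other genes with a lower response at 8 weeks fell there. Etnk2, an ethanolamine kinase, had levels of -3.73, -3.52 and -3.43 in irradiated 8-week marrow, against -1.96, -1.63 and -2.07 in unirradiated 8-week marrow. Its levels were -1.82, -1.69 and -2.19 in irradiated 1-week marrow, against -1.91, -1.77 and -1.51 in unirradiated 1-week marrow, and overlapped. The difference of Etnk2 was -1.5 ± 0.23 (adjusted p = 0.000451). Adamts7, a protease of cartilage matrix, fell by 1.63 at 8 weeks (-1.38 ± 0.22), with -1.47 for its second probe. Gpx2, a glutathione peroxidase, fell by 0.87 at 8 weeks (-1.11 ± 0.15, adjusted p = 0.000203). Neil3, a DNA glycosylase, fell by 0.34 at 8 weeks and rose by 0.58 at 1 week (-0.91 ± 0.16, adjusted p = 0.00136).

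Alongside Ccng1, Dcxr and Ei24, the strongest responses shared by the ages within a narrow interval included Psrc1, a spindle protein, which rose by 2.03 at 8 weeks and 2.12 at 1 week, and Slc19a2, a thiamine transporter, which rose by 1.72 at both. Blnk, an adaptor of B-cell receptor signalling, fell by 1.38 and 1.32 (interval -0.28 to 0.16). For these genes the whole 95% interval of the difference lay between -0.35 and 0.35. That held for 1202 genes called the same way at both ages, these included.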

How the data were processed

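Bone marrow RNA was measured on 18 one-colour Agilent arrays, of which 12 enter the comparison described. The deposited files hold scanner intensity per spot; the authors used Agilent Feature Extraction 11.5.1 per the submitters' processing notes, while the file headers give 9.5.1.1 and the build mm9. Per the file headers, the deposited columns hold a processed, background-subtracted signal and flags for spots above background. The authors' deposited table of log2 values served as an alternative (41174 of 41252 rows matched a probe). Each processed signal was taken as log2 minus the array's 75th percentile over non-control probes, and spots of 1 probe were averaged. RefSeq accessions (GRCm38.p6) named 24844 probes, with 16330 left unnamed. The brightest probe stood for each of 17178 genes, and 11884 genes were tested, those that all 3 arrays of some group, of the 6, measured well above background. Group means of all 18 arrays were fitted with limma 3.58.1 (lmFit, eBayes with trend) in R 4.3.3, the response difference was a contrast, and p-values were adjusted by Benjamini-Hochberg with a threshold of 0.05. The code was tested on simulated data. Same-numbered replicates showed no common deviation on the median (18 pairs, r = -0.267 to 0.3, median -0.0133, 5 over 0.1). So few arrays cannot exclude a pairing, but no label states one, and the main fit used none. Arrays of 1 slide had a higher median (9 pairs, median r = 0.142, 5 over 0.1), and slide as a block was an alternative. Named genes were the 15 highest and lowest differences, 8 opposite responders each way, 10 shared responders, up to 4 called members per list and fixed reference genes. Adgre1, the heat shock genes beyond those 4, and the genes named as chosen after their values were seen fall outside that rule. So do Msr1, Vsig4, Folr2, Cd163 and Slc40a1. Members and lists were chosen with earlier results of these data known. The number of arrays limits the precision. Some genes are not reported here.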

Additional observations from a re-analysis of the deposited data

Results flagged for a closer look

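The 6 h response differed between the ages, by a test of the difference itself, in 2210 genes. In the following genes the fitted responses were called in opposite directions at the 2 ages. Those fitted higher at 8 weeks had differences of 3.41 for Tbx3, 3.27 for Spats2l, 2.75 for Sobp, 2.25 for Cmbl, 2.22 for Galnt16, 2.11 for Sfrp2, 2.1 for Ccdc80 and 2.1 for C1qc. Those fitted lower at 8 weeks had differences of -1.47 for Galnt9, -1.21 for Fn1, -1.17 for Cyp27a1, -1.05 for Cldn10, -0.95 for H2bc21, -0.91 for Neil3, -0.9 for Mcub and -0.89 for Zpbp2. Tbx3 and Galnt16 were not well above background on any 8-week array, and Sfrp2 was not on any 1-week array, so no direction or size can be read for them at that age. Tbx3 was not on any irradiated 1-week array either, which allows only that it was at least 2.46-fold lower there than in unirradiated 1-week marrow. Spats2l was not on any unirradiated 8-week array, and irradiated 8-week marrow was at least 1.57-fold higher. Unirradiated 1-week replicate 2 was the highest of its group for Tbx3, Spats2l, Sobp, Cmbl, Galnt16 and Ccdc80, whose differences without it were 2.7, 2.74, 2.11, 1.78, 1.75 and 1.48. With slide as a block, Galnt16, Ccdc80, Fn1 and Cyp27a1 lost their call.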

How the results depend on the processing

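The count of 2210 called differences became 1370 with slide as a block, of which 1179 were shared, and 3384 when all probes, named or not, were tested. Testing all probes gave 8913 called responses at 8 weeks and 10845 at 1 week, against 5469 and 6161 for genes. Leaving out 1 array at a time gave 1577 to 2106 called differences, 4491 to 5649 called responses at 8 weeks and 5299 to 6334 at 1 week. The fit on the 12 arrays of the 4 groups alone gave 1549 called differences, of which 1521 were shared. The other alternatives gave 1689 to 2330. With replicate number as a block the count was 2097, of which 2010 were shared, though no label states that the numbers pair samples. The share of calls that were higher at 8 weeks was 56.5%, and lay between 47.7% with all probes and 64.6% without unirradiated 1-week replicate 2. Of 195 named genes with a call, 104 kept it in every setting. With all probes the balance turned to 1615 higher and 1769 lower. The balance of calls also turned for some lists, among them late neutrophil genes and chemokine receptors, as given with those lists. With slide as a block, mast cell, basophil and eosinophil genes went from 2 higher and 4 lower to 2 and 1. AP-1 and immediate early genes went from 3 and 2 to 1 and 2 there. Without unirradiated 1-week replicate 2, G1 cyclins, CDKs and inhibitors went from 2 and 4 to 3 and 2. No named gene with a call reversed its sign in the alternatives run. The all-probe test, normexp on the median signals, the percentile over spots and leaving out both second 1-week replicates were added after seeing the data. Normexp on the mean signals was not run, since the columns used here do not hold them. Genes near background have only bounds.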

Other observations

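Of 6317 tested probes without a gene symbol, 786 had a called difference (12.4%), 241 higher and 545 lower at 8 weeks. Of 17024 probes with a symbol, 2598 were called (15.3%), 1374 higher and 1224 lower.

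Trib3, Atf5, Chac1 and Ddit3 were chosen after their values were seen, and no list of related genes was tested. Trib3, a pseudokinase, rose by 1.53 at 1 week, with an uncalled response of 0.19 at 8 weeks (difference -1.34 ± 0.29, adjusted p = 0.0058 by limma). Atf5, a transcription factor, rose by 1.09 at 1 week (-1.03 ± 0.18, adjusted p = 0.00112). Chac1, which degrades glutathione, rose by 0.72 at 8 weeks and 1.68 at 1 week (-0.96 ± 0.26, adjusted p = 0.0165). Ddit3, which encodes CHOP, rose by 0.34 and 0.94 (-0.6 ± 0.19, adjusted p = 0.0347). Cd209b, a relative of Cd209d also chosen after its values were seen, rose by 1.7 at 1 week (-1.64 ± 0.5, adjusted p = 0.0321).

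The same difference taken at 24 h shares the unirradiated arrays with that at 6 h. It was 1.36 for C1qa, 1.1 for C1qc, 2.09 for Marco, 1.71 for Ccn2, 0.7 for Il18, 0.45 for Hsph1, -2.35 for Adam33, -2.26 for Cd209d and -1.31 for Rag1.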
